A study of Homo sapiens with 6 samples.

Results

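The transcripts described are those of 10 enzymes and enzyme partners that make, reduce, oxidise or conjugate androgens, out of 28503 lines in the expression table: CYB5A, AKR1C3, SRD5A1, SRD5A3, HSD17B4, HSD17B11, UGT2B11, UGT2B15, UGT2B17 and UGT2B28. They were taken by symbol, and each symbol occurs once in the table. The study read polyadenylated RNA of C4-2, an established human prostate cancer cell line grown out of LNCaP, at passages 10 to 15. The groups were cells given vehicle, GSK126 (an inhibitor of the methyltransferase EZH2), astemizole (an antihistamine), lentivirus with a scramble shRNA, and lentivirus with EZH2 shRNA #1 or #2. All were grown in medium with serum. The labels name no further genetic change and give neither doses nor times. Vehicle is the matched control of both compounds and scramble shRNA that of the knockdown. The table has 1 knockdown column, which names no hairpin and is taken here as the value for both. Each of the 5 columns holds 1 value per gene, so the differences below have no replicate check and no test, and they describe these columns only.

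Androgens are made from cholesterol through dehydroepiandrosterone and androstenedione, and a tumour cell without the full route can still convert adrenal precursors. Enzymes that reduce the ketone at carbon 17 make testosterone, and steroid 5alpha-reductases turn it into dihydrotestosterone, the most potent androgen. Enzymes that oxidise the same carbon lower the supply of active androgen, and UDP-glucuronosyltransferases of the UGT2B family attach glucuronic acid so that the steroid leaves the cell. In LNCaP-type cells UGT2B15 and UGT2B17 are known to be repressed by androgens.

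The members with a promoter sequence fell into 5 with 14 or more CpG dinucleotides before the start site and transcripts above 3 FPKM in every column, and 3 with at most 1 CpG and at most 1.45 FPKM; FPKM, a fragment count divided by transcript length and library size, is a level per length and can be compared between genes. The 250 bases before the start site, from the RefSeq promoter table on GRCh38.p14, were found for 8 of the 10 members, with a pair of windows for AKR1C3. Polycomb complexes, to which EZH2 belongs, are known to bind CpG-rich DNA, and for that reason the CpG dinucleotides are shown in capitals for 4 members. The authors' build was hg19, so the positions below are those of the promoter table and not of the expression table. All are printed 5′ to 3′ on the gene's own strand.
UGT2B15, chr4:68670653-68670902, minus strand: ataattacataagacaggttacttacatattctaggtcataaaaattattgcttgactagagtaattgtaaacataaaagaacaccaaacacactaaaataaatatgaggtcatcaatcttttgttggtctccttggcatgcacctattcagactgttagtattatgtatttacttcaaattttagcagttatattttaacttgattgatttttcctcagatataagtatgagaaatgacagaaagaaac
AKR1C3, chr10:5094164-5094413, plus strand: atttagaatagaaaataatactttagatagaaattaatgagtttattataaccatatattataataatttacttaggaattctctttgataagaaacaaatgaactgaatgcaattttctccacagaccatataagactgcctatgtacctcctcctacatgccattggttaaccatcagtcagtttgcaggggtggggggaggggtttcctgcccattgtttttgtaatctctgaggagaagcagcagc
HSD17B11, chr4:87391189-87391438, minus strand: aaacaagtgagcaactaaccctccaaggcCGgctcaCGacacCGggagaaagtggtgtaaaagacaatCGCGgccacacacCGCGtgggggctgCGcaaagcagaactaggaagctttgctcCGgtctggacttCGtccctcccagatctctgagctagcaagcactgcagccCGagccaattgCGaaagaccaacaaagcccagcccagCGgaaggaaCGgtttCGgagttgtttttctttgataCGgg
CYB5A, chr18:74291964-74292213, minus strand: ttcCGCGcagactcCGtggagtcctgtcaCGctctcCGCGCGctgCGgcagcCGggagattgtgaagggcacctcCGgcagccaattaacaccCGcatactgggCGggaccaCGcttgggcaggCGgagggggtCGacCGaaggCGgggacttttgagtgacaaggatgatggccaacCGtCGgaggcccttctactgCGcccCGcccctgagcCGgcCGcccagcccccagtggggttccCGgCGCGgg
The UGT2B15 window and both AKR1C3 windows hold 0 CpG dinucleotides, and the UGT2B11 window holds 1. HSD17B4 has 14, HSD17B11 16, SRD5A3 23, CYB5A 26 and SRD5A1 28. HSD17B4 and HSD17B11 are near the middle of all windows, whose median is 11. Over the table, promoter windows of genes that reached 1 FPKM had a median of 20 CpG dinucleotides (13256 windows), and those of genes under 1 FPKM in every column had a median of 6 (7576 windows).

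**Figure D1:**
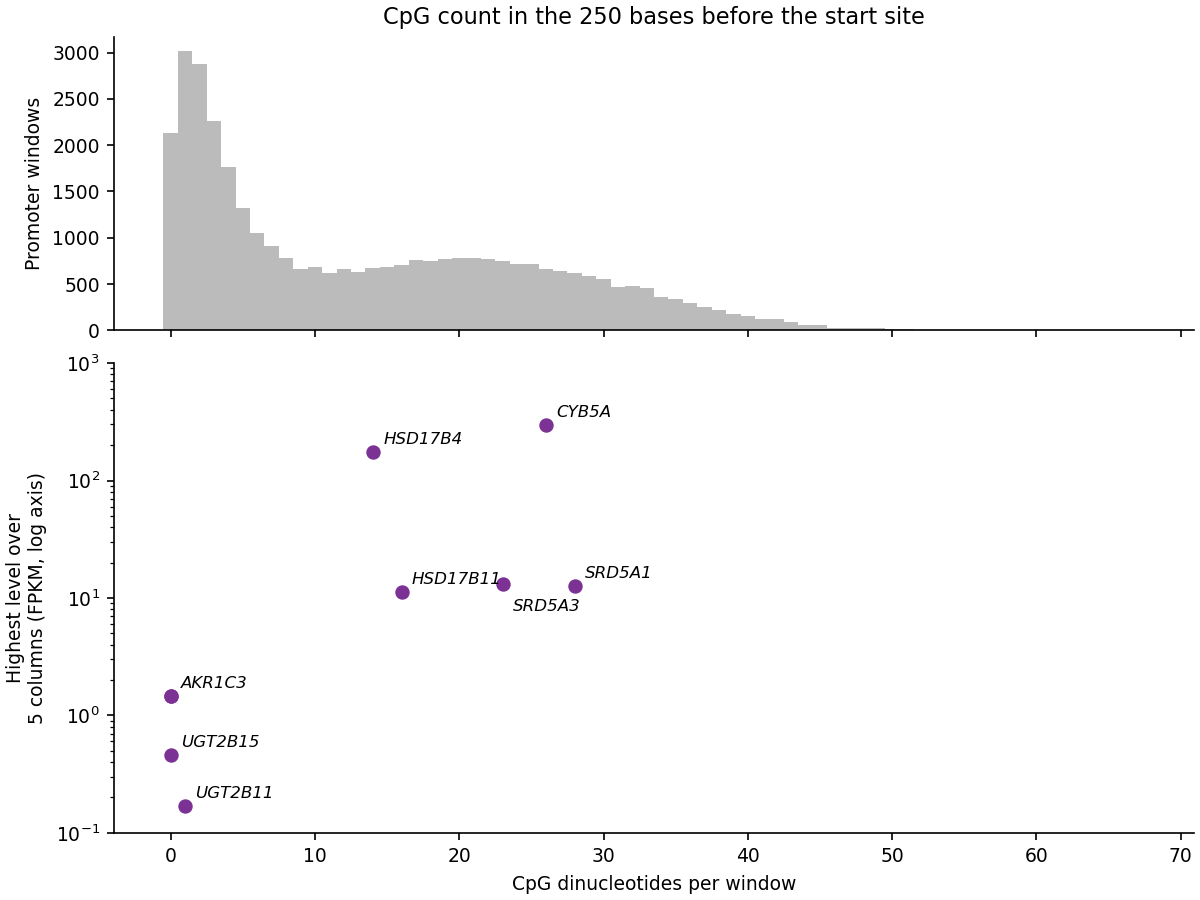
Upper panel: number of promoter windows in the RefSeq table by CpG count in the 250 bases before the start site. Lower panel: highest level of each member over the 5 columns (FPKM, log axis) against that count for the 8 members with a window, where AKR1C3, UGT2B15 and UGT2B11 sit at 0 or 1 CpG and the other 5 at 14 to 28.

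The strings were also searched for 4 short motifs on both strands, by letters alone. CCAAT, the CCAAT box, occurred once in both AKR1C3 windows and in the windows of its neighbours AKR1C1 and AKR1C2, as in 32.0% of all windows. It also occurred in those of UGT2B11, HSD17B11 and CYB5A. TGTTCT, the androgen response half-site, occurred in the UGT2B15 window and in no other member's, against 12.4% of all windows. TGACNNNGC, the core of the antioxidant response element, occurred in the SRD5A3 and UGT2B11 windows and not in those of the AKR1C genes, against 10.9% of all windows. TATAAA, the TATA box, occurred at 2 places in the UGT2B11 window and once in the AKR1C3 window that is not shown, against 10.7% of all windows. A match is a string of letters and shows no binding.

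**Figure D2:**
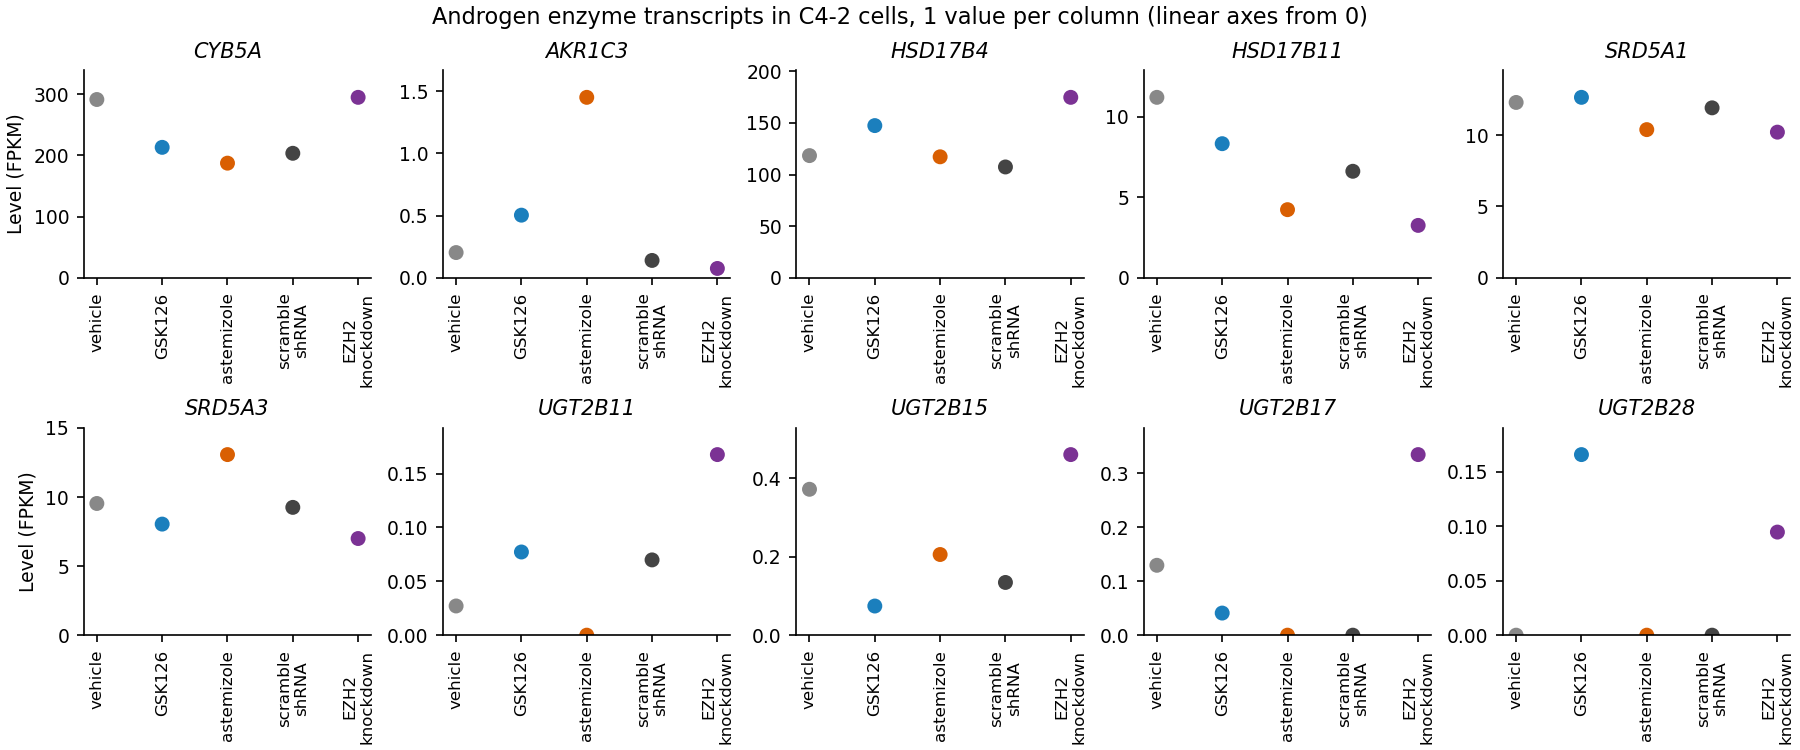
Level of each of the 10 members in FPKM on linear axes from 0, with 1 point per column and no replicates. HSD17B11 is lowest with knockdown and astemizole, AKR1C3 stands out with astemizole, and the 4 UGT2B genes stay under 0.5 FPKM throughout.

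Of the 10 members, 6 reached 1 FPKM in at least 1 column and entered the comparisons with 12934 genes in all, and the 4 UGT2B genes did not. AKR1C3 passed this filter only through the astemizole column, where it was high, so its inclusion is tied to that difference and counts of members support nothing by themselves. The comparisons of GSK126 and astemizole share the vehicle column. Ratios are log2 of FPKM + 1 over FPKM + 1 of the matched control, a scale that understates differences of low genes. With GSK126, 0 of the 6 were at least 2-fold higher and 0 lower, against 1.05% of all genes higher and 0.951% lower. With astemizole, 1 (AKR1C3) was higher and 1 (HSD17B11) lower, against 3.53% and 5.50% of all genes. In the knockdown column 0 were higher and 0 lower, against 1.93% and 5.10%, though HSD17B11 lay past 2-fold in plain FPKM. Between the control columns, scramble shRNA over vehicle, 0 were higher and 0 lower, against 0.170% and 0.850%. With each column rescaled to the same total, 285 of all genes were higher and 71 lower with GSK126 in place of 136 and 123, and 84 and 82 in place of 22 and 110 between the controls; centring on the median of all genes gave 33 and 75 there.

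At 1.5-fold, 0 of the 6 were higher and 0 lower with GSK126, where 4.93% and 6.39% of all genes were. With astemizole 1 was higher and 2 were lower, against 10.5% and 14.6%. In the knockdown column 1 was higher and 1 lower, against 8.19% and 11.7%. The median log2 ratio of the 6 was -0.09 with GSK126, -0.12 with astemizole and -0.14 with knockdown, beside -0.04, -0.06 and 0.03 for all genes. Members lay on both sides of 0 in each comparison. In bulk RNA, fewer cells with a transcript and less of it per cell cannot be told apart.

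**Figure D3:**
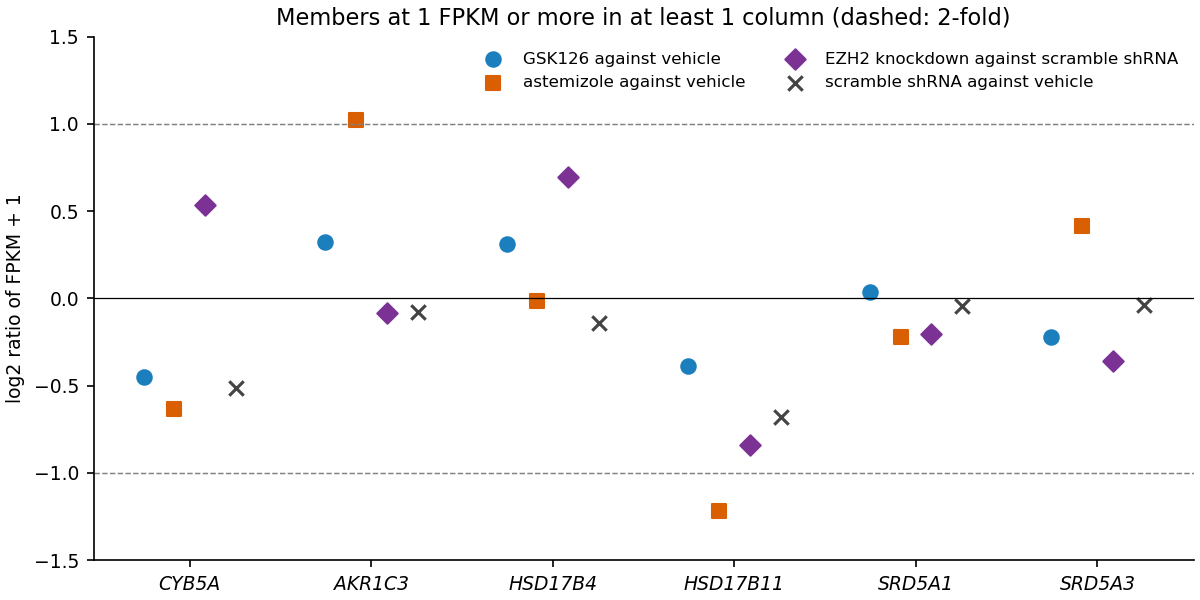
Log2 ratio of FPKM + 1 for the 6 members that reached 1 FPKM, in the 3 matched comparisons and between the 2 control columns, with dashed lines at 2-fold. AKR1C3 (1.03) and HSD17B11 (-1.22) with astemizole are the only points past the lines, and for CYB5A and HSD17B11 the crosses, which compare the controls, lie at -0.52 and -0.68.

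CYB5A, the cytochrome b5 that raises the 17,20-lyase activity of CYP17A1, was the most abundant member and stood at or above the 96.3 percentile of all kept genes in every column. It was at 291 FPKM with vehicle and 203 with scramble shRNA, 213 with GSK126, 187 with astemizole and 295 in the knockdown column. Vehicle and knockdown were the high pair, and the other 3 lay close together. The log2 ratios to the matched controls were -0.45, -0.63 and 0.53, but the controls themselves differed by -0.52. Against the other control these values were 0.07 with GSK126, -0.12 with astemizole and 0.02 with knockdown. On the deposited scale each of the matched differences is thus about as large as the gap between the controls. With columns rescaled to the same total the controls differed by -0.25. The matched ratios were then -0.23 with GSK126, -0.59 with astemizole and 0.50 with knockdown, the latter 2 larger in size than that gap. Its enzyme partner CYP17A1 was listed at 0.0243 FPKM with vehicle and at 0 in the other 4 columns.

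AKR1C3, which reduces androstenedione to testosterone, was close to silent except with astemizole, and low there too. It stood at or below the 10.3 percentile of all kept genes in every column. It was at 0.204 FPKM with vehicle and 0.140 with scramble shRNA, and at 0.504 with GSK126, 1.45 with astemizole and 0.0760 in the knockdown column. Astemizole was the high column and GSK126 came next, and the knockdown column lay below both controls. The plain ratio of FPKM to vehicle was 7.12 with astemizole and 2.47 with GSK126, and to scramble shRNA 10.3 and 3.59. On the log2(FPKM + 1) scale the ratios to vehicle were 1.03 and 0.32, and that of the knockdown to scramble shRNA was -0.08.

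The neighbouring AKR1C genes, whose enzymes reduce the 3-ketone of dihydrotestosterone and related steroids, had the same high column. AKR1C1 was at 0.210 FPKM with vehicle and 0.0302 with scramble shRNA, and at 0.800 with GSK126, 2.54 with astemizole and 0.0960 with knockdown, which is 12.1 times vehicle for astemizole and 3.80 times for GSK126. AKR1C2 had 0.469 FPKM with astemizole, 0.103 with GSK126, 0.0205 with knockdown, 0.0602 with vehicle and 0.0810 with scramble shRNA. The 3 transcripts are alike to differing degrees. The longest coding transcript of AKR1C3 in GENCODE matched that of AKR1C1 at 88.4% of 1347 aligned bases, and 7.68% of its 50-base windows occur unchanged in AKR1C1 and 9.61% in AKR1C2. Those of AKR1C1 and AKR1C2 are closer, at 97.6% of 3750 aligned bases, with 28.3% of the AKR1C1 windows shared. The sources used here do not say how reads that fit more than 1 copy were divided, so the split among these genes is uncertain.

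Of the 5alpha-reductases, SRD5A1 varied little and SRD5A3 was highest with astemizole. SRD5A1, the form most abundant in castration-resistant prostate cancer, was at 12.3 FPKM with vehicle and 11.9 with scramble shRNA, and at 12.6 with GSK126, 10.4 with astemizole and 10.2 in the knockdown column. Astemizole and knockdown were slightly below their controls, with log2 ratios of -0.22 and -0.20, and GSK126 was at 0.04. Its range over the 5 columns, 0.28 on the log2(FPKM + 1) scale, was the narrowest among the 6. SRD5A3, which also serves in dolichol synthesis, was at 9.53 FPKM with vehicle and 9.25 with scramble shRNA, and at 8.04 with GSK126, 13.1 with astemizole and 6.996 with knockdown. It was high with astemizole (0.42) and low with knockdown (-0.36), while the controls differed by -0.04 (0.21 with columns rescaled to the same total), and with GSK126 it had -0.22. SRD5A2, the prostate form of the enzyme, was listed at 0 in all 5 columns. An antisense transcript, SRD5A3-AS1, is listed apart, and without a statement on strand its reads and those of SRD5A3 cannot be told apart where they overlap.

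HSD17B4, a peroxisomal enzyme that oxidises 17beta-hydroxysteroids and also acts in fatty acid oxidation, was highest in the knockdown column. It was at 118 FPKM with vehicle and 107 with scramble shRNA, and at 147 with GSK126, 117 with astemizole and 175 with knockdown. The knockdown column was 1.63 times scramble shRNA and 1.48 times vehicle, while vehicle was 1.10 times scramble shRNA, a difference that turned with columns rescaled to the same total (log2 0.13 for scramble shRNA over vehicle). The log2 ratios to the matched controls were 0.31 with GSK126, -0.01 with astemizole and 0.70 with knockdown. Of the 6 members it was the one past 1.5-fold upward with knockdown.

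HSD17B11, which oxidises androstanediol to androsterone, had the widest range of the members on the log2(FPKM + 1) scale, 1.52. As a plain ratio of highest to lowest FPKM, AKR1C3 varied more, from 0.0760 to 1.45. HSD17B11 was at 11.2 FPKM with vehicle and 6.61 with scramble shRNA, and at 8.32 with GSK126, 4.23 with astemizole and 3.26 in the knockdown column. Astemizole and knockdown were the low pair and lay below both controls, but vehicle was 1.69 times scramble shRNA. The log2 ratios to the matched controls were -0.39, -1.22 and -0.84. In plain FPKM scramble shRNA was 2.03 times knockdown, so the knockdown count of 0 lower depends on the pseudocount: at 0.1 FPKM it is 1. Against the other control they were 0.29 with GSK126, -0.54 with astemizole and -1.52 with knockdown, so the direction with GSK126 turned and the 2-fold call moved from astemizole to knockdown.

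The 10 genes used as markers of dividing cells were also lowest in these columns. Their summed level was 1072 FPKM with vehicle and 815 with scramble shRNA, and 535 with GSK126, 224 with astemizole and 106 in the knockdown column. All 10 were at least 2-fold lower with astemizole and with knockdown, and 4 were with GSK126. Their part in the HSD17B11 and HSD17B4 differences was not tested.

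The 4 UGT2B members were near the detection limit in every column. UGT2B15, which conjugates dihydrotestosterone and its metabolites, was at 0.372 FPKM with vehicle and 0.134 with scramble shRNA, and at 0.0743 with GSK126, 0.206 with astemizole and 0.461 in the knockdown column. UGT2B17, which conjugates testosterone and dihydrotestosterone, was at 0.129 FPKM with vehicle, 0.0409 with GSK126 and 0.334 with knockdown, and was listed at 0 with astemizole and scramble shRNA. For both genes the knockdown column was the highest and vehicle came next.

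UGT2B11 was at 0.0271, 0.0772, 0, 0.0699 and 0.168 FPKM in the order vehicle, GSK126, astemizole, scramble shRNA and knockdown. UGT2B28, another androgen-conjugating form, was at 0.166 FPKM with GSK126 and 0.0945 with knockdown and was listed at 0 in the other 3 columns. The 4 together summed to 0.529 FPKM with vehicle and 0.204 with scramble shRNA, and 0.358 with GSK126, 0.206 with astemizole and 1.06 with knockdown.

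The number of reads behind these values can be approached through the spacing of low values. Among low genes the ratios between columns pile up at fixed steps, which give the value of 1 read relative to vehicle: 0.949 with GSK126, 1.05 with astemizole and 0.858 with scramble shRNA. The smallest whole numbers that give the UGT2B15 values, within 0.05 of a whole number, are 19 reads with vehicle, 4 with GSK126, 10 with astemizole and 8 with scramble shRNA. If these are the reads, the ratio to vehicle was 0.200 with GSK126 (exact Clopper-Pearson 95% interval 0.0494 to 0.601), 0.553 with astemizole (0.230 to 1.25) and 0.361 with scramble shRNA (0.137 to 0.864). The intervals cover counting error only and compare libraries, not conditions. On the FPKM scale as deposited, those of GSK126 and of scramble shRNA both lie below 1. On that reading UGT2B15 was lower than with vehicle in the other control too. The columns summed to 796603 FPKM with vehicle and 661933 with scramble shRNA. Rescaling to the same total, not done for the intervals, would raise that of scramble shRNA, so its place below 1 depends on the scale. For UGT2B11 the smallest numbers were 1, 3, 0 and 3 reads, and for UGT2B17 3, 1, 0 and 0, the latter from a single ratio. No such numbers up to 30 were found for AKR1C3, and the knockdown column could not be read this way. UGT2B28 was listed at 0 with vehicle and has no such ratio. The true numbers may be multiples of these, and no difference is read from UGT2B11, UGT2B17 or UGT2B28.

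Close copies add to this limit. The UGT2B15 and UGT2B17 transcripts match at 96.4% of 1812 aligned bases and share 27.5% of the 50-base windows of UGT2B15, and those of UGT2B11 and UGT2B28 match at 96.9% of 1832, with 18.1% of the UGT2B11 windows shared. Between the pairs the identity was 83.1% to 83.6%, and at most 0.148% of windows were shared. The split within each pair is therefore uncertain.

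**Figure D4:**
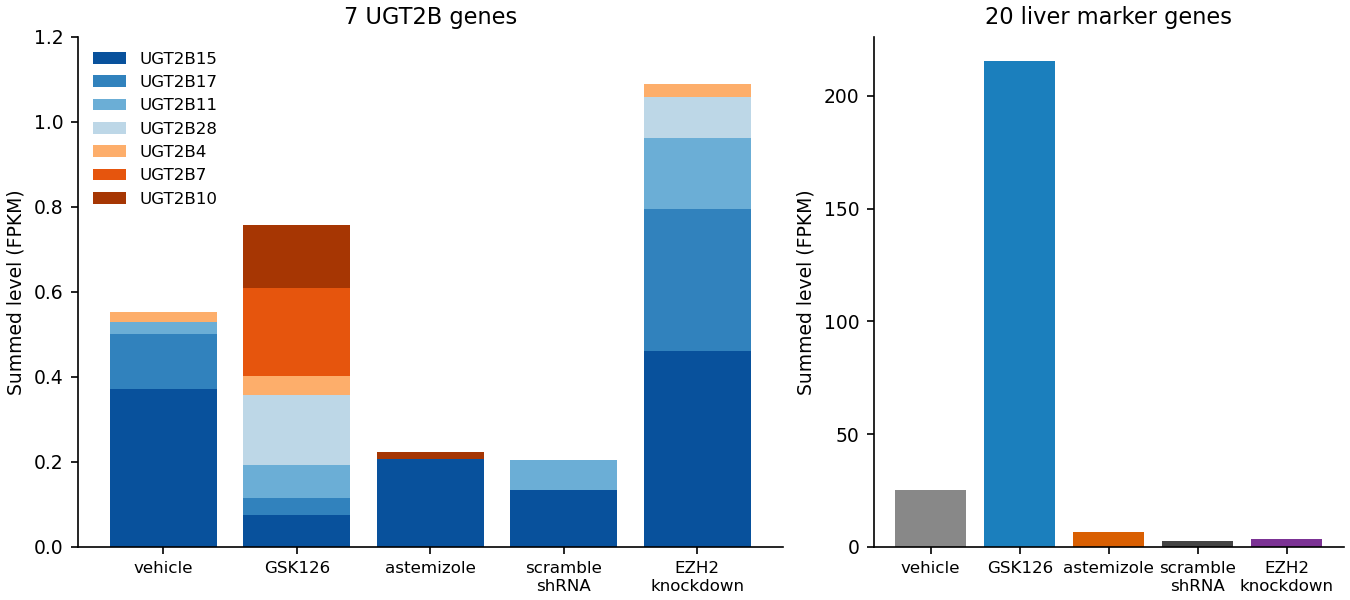
Left: summed FPKM of the 7 UGT2B genes by column, with 1 colour per gene. Right: summed FPKM of 20 liver marker genes, which reaches 215 with GSK126 and 25.1 with vehicle; UGT2B7 and most of UGT2B10 appear in the GSK126 column alone.

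Liver markers stood out in the GSK126 column, where UGT2B28 had its highest value. The summed level of the 20 liver marker genes was 215 FPKM with GSK126, 25.1 with vehicle, 6.67 with astemizole, 2.43 with scramble shRNA and 3.58 with knockdown, and all 20 were highest with GSK126. The albumin gene ALB was at 28.7 FPKM there, at 4.18 with vehicle and at most at 0.133 elsewhere. The UGT2B genes outside the members, UGT2B7, UGT2B10 and UGT2B4, were also highest there, at low values, and were named after their values were seen. The listed values of UGT2B15, UGT2B17 and UGT2B11 were highest with knockdown. With GSK126 and vehicle UGT2B15 was at 0.0743 and 0.372 FPKM, and UGT2B17 at 0.0409 and 0.129. UGT2B11 was at 0.0772 FPKM with GSK126, 0.0271 with vehicle and 0.168 with knockdown. As stated above, no difference is read from UGT2B11, UGT2B17 or UGT2B28. UGT2B7 was at 0.206 FPKM with GSK126 and listed at 0 elsewhere, and UGT2B10 was at 0.149 with GSK126, 0.0183 with astemizole and listed at 0 in the other 3. UGT2B4 was at 0.0444 FPKM with GSK126, 0.0234 with vehicle and 0.0319 with knockdown. The part of these markers in the GSK126 values of UGT2B28, AKR1C3 and AKR1C1 was not tested. In the astemizole column, where AKR1C3 was highest, 7 of the 20 were listed at 0. With scramble shRNA 12 were, with knockdown 6, and with vehicle and GSK126 0.

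The rest of the androgen pathway was taken from lists by role, 67 genes with the members, of which 31 reached 1 FPKM in at least 1 column. Of the 25 that are not members, GSK126 had 0 past 2-fold upward and 0 downward, against 1.05% and 0.951% of all genes. There were 2 higher and 3 lower with astemizole, where 3.53% and 5.50% of all genes were, and 1 higher and 1 lower with knockdown, against 1.93% and 5.10%. Between the controls 0 were higher and 1 lower, against 0.170% and 0.850%. Their medians were -0.19, 0.00 and 0.01 in the 3 matched comparisons and -0.23 between the controls.

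With astemizole the 2 higher genes were HSD17B14 and AKR1C1, and AKR1C1 reached 1 FPKM in that column alone. HSD17B14, a 17beta-hydroxysteroid oxidase, was at 22.0 FPKM with astemizole, 5.68 with GSK126, 3.05 with vehicle, 1.91 with scramble shRNA and 2.02 with knockdown, so that the astemizole column was 7.22 times vehicle. The 3 lower genes were HSD17B6, CYP11A1 and SULT2B1. HSD17B6, which converts androstanediol back to dihydrotestosterone, was at 2.47 FPKM with vehicle and 2.32 with scramble shRNA, and at 1.93 with GSK126, 0.624 with astemizole and 0.244 with knockdown. Both low columns lay below both controls, which were close to each other, and it was also the 1 lower gene with knockdown (-1.42, against -1.10 with astemizole).

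CYP11A1, the side-chain cleavage enzyme that starts steroid synthesis, was at 2.60, 0.890, 0.664, 1.21 and 0.172 FPKM in the order vehicle, GSK126, astemizole, scramble shRNA and knockdown. SULT2B1, a hydroxysteroid sulfotransferase, was at 14.5, 8.87, 5.95, 10.2 and 5.79. Vehicle was the highest column for both, and against scramble shRNA their log2 ratios with astemizole were -0.41 and -0.68, short of 2-fold. FDXR, the reductase that feeds electrons to CYP11A1, was the 1 higher gene with knockdown, at 67.8 FPKM against 25.8 with scramble shRNA and 39.1 with vehicle. Against vehicle its log2 ratio with knockdown was 0.78, short of 2-fold. HSD17B10 was the 1 gene that differed between the controls, at 102 FPKM with scramble shRNA and 208 with vehicle.

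**Figure D5:**
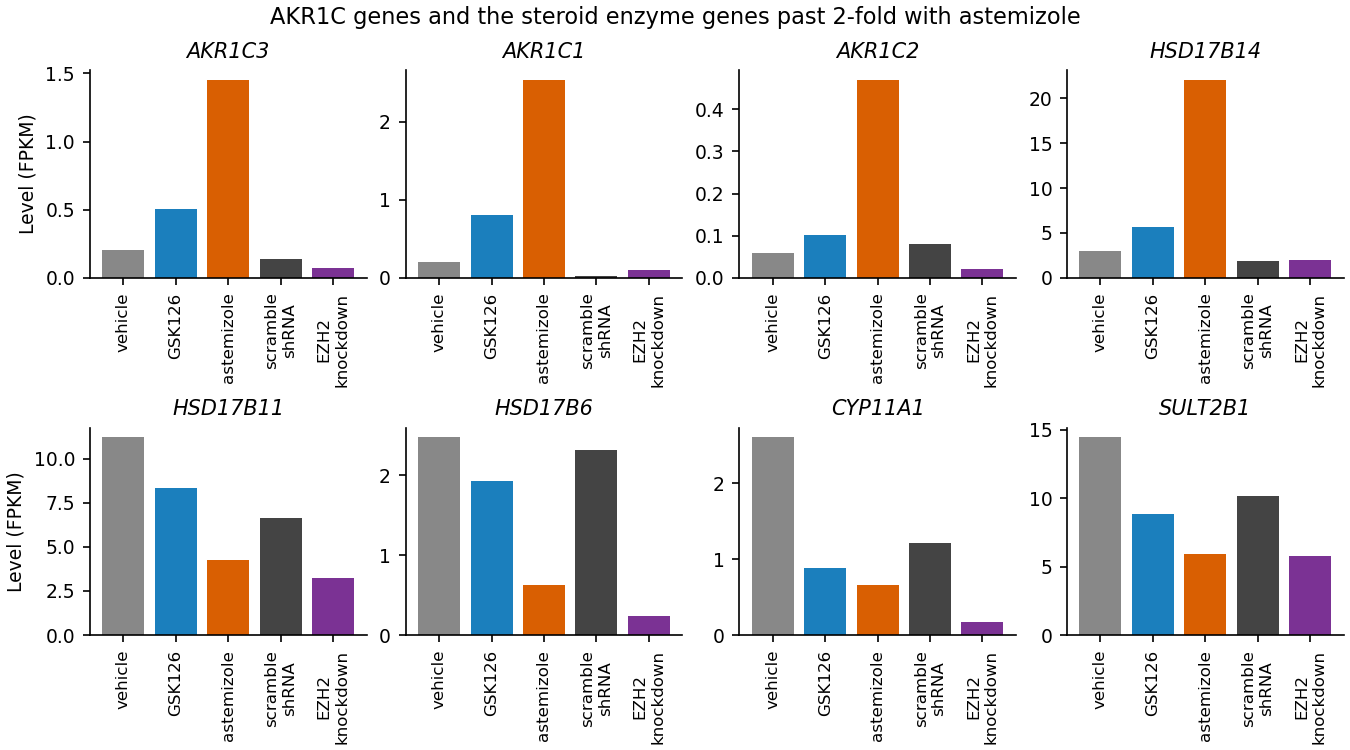
Level in FPKM, as bars from 0, of AKR1C3 with AKR1C1 and AKR1C2, and of the steroid enzyme genes at least 2-fold higher or lower with astemizole, 1 value per column. The 3 AKR1C genes and HSD17B14 are highest with astemizole, and HSD17B11, HSD17B6, CYP11A1 and SULT2B1 are lower with astemizole and knockdown than in both controls.

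Within the roles, 14 glucuronidation genes were listed and 2 reached 1 FPKM: UGDH and UGP2, which supply the sugar donor UDP-glucuronic acid and its precursor. UGDH was at 16.8, 14.0, 13.4, 11.9 and 11.1 FPKM and UGP2 at 33.7, 28.97, 33.7, 25.5 and 19.4 in the order vehicle, GSK126, astemizole, scramble shRNA and knockdown, none past 2-fold. Also listed at 0 in all 5 columns were HSD3B2, CYP7B1, SULT1E1, SLCO1B3 and UGT1A4. Of 8 adrenal or Leydig steroidogenic markers, CYP11A1 alone reached 1 FPKM. All 10 prostate luminal markers were present, with sums from 2703 to 5678 FPKM, and 2 of 6 basal, 1 of 6 fibroblast and 2 of 6 blood markers reached 1 FPKM. Of the luminal markers, 2 were at least 2-fold lower with astemizole and 1 with knockdown, against 5.50% and 5.10% of all genes. Their median log2 ratios were 0.21 with GSK126, -0.49 with astemizole and -0.51 with knockdown. The part of these differences in the members' values was not tested. EZH2 itself was at 26.5 FPKM with vehicle, 24.6 with scramble shRNA, 17.5 with GSK126, 9.48 with astemizole and 3.35 with knockdown.

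The genes with the nearest pattern were sought for the 2 members with the widest range, HSD17B11 and AKR1C3, among the 9355 other genes with a known symbol that reached 5 FPKM and were above 0 in every column, and over the 5 columns, which share their libraries. Likeness was the root mean square difference of log2(FPKM + 1) after centring each gene. The 5 FPKM limit leaves out AKR1C1 and AKR1C2. For HSD17B11 the nearest were ZNF85 (0.08), C12orf75 (0.11), MANF (0.12) and LY6E (0.12). ZNF85, for example, was at 7.34, 6.00, 3.25, 4.76 and 2.08 FPKM in the order vehicle, GSK126, astemizole, scramble shRNA and knockdown. For AKR1C3 they were MTHFD2L (0.06), VGLL4 (0.07), AGPAT2 (0.07) and LINC00847 (0.08), all far more abundant, such as MTHFD2L at 14.0 FPKM with vehicle, 12.1 with scramble shRNA, 16.7 with GSK126, 26.2 with astemizole and 11.0 with knockdown. The pseudocount makes these alike: as a plain ratio of FPKM between columns, MTHFD2L differed far less than AKR1C3.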

How the data were processed

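Polyadenylated RNA of 6 C4-2 libraries is listed in the labels, and the table holds 5 columns. Values are FPKM as deposited, a unit that the labels give for the table. TopHat2, Cuffdiff and hg19 are named in the submitters' processing notes, without versions or order. The annotation and the options are not stated in the sources at hand. Nor is it stated whether and how the knockdown column was made from the 2 hairpin libraries. Depth is unknown, because FPKM holds no read totals; the spacing of low values gave relative depth only.

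Of 28503 lines, 27 names turned into dates and 1674 short non-coding RNA genes were left out, and the 12934 genes that reached 1 FPKM in any column were kept. Ratios are log2 with a pseudocount of 1 FPKM, counted at 2-fold. With 1 value per condition there is no test. The ratio step was tested on simulated data. Tools were Python 3.11.15, pandas 2.3.3, NumPy 2.4.6, SciPy 1.17.1 and Biopython 1.88 (transcript alignment). Promoters are from RefSeq (GRCh38.p14) and transcripts from GENCODE.

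The members, lists and comparisons were chosen with earlier results of these data known. Named were all members, other pathway genes past 2-fold or listed at 0, the 4 nearest patterns of the 2 members with the widest range, EZH2 and needed markers. UGDH, UGP2, AKR1C2, UGT2B4, UGT2B7 and UGT2B10 were named after their values were seen. The motifs and the CpG count were chosen after the files were seen. Alternatives were pseudocounts, filters, scalings, the other control and a lower fold.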

Additional observations from a re-analysis of the deposited data

How the results depend on the processing

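The counts of members past 2-fold were recomputed under 7 settings. A pseudocount of 0.1 FPKM put 1 member lower with knockdown, HSD17B11, exactly at the 2-fold line. Without a filter at that pseudocount, so that all 10 members counted, GSK126 had 1 higher and 1 lower, astemizole 2 lower, knockdown 2 higher and 1 lower, and scramble shRNA against vehicle 2 lower. Besides HSD17B11, the added calls in those comparisons were UGT2B genes, all under 0.5 FPKM. A filter at 5 FPKM left 0 higher with astemizole, since AKR1C3 was no longer tested. With the other control, astemizole had 0 lower and knockdown 1. At 1.5-fold, astemizole had 2 lower, against 14.6% of all genes. Knockdown had 1 higher and 1 lower, against 8.19% and 11.7%. The controls differed with 1 lower, where 175 of the 12934 genes were higher and 604 lower. Rescaling to a common total and centring on the median of all genes changed none of these counts.

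Over all genes, a pseudocount of 0.1 FPKM gave 370 higher and 237 lower with GSK126, 751 and 1022 with astemizole, 487 and 1005 with knockdown, and 77 and 304 between the controls, in place of 136 and 123, 457 and 711, 250 and 660, and 22 and 110. Without a filter they were 979 and 519, 1344 and 1535, 877 and 1385, and 294 and 773. At 5 FPKM GSK126 had 83 higher and 90 lower, astemizole 341 and 603, knockdown 206 and 565, and the controls 11 and 73. The filter settings change how many genes are tested, so these counts are not shares of the same total. With the other control GSK126 had 197 higher and 51 lower, astemizole 592 and 504, which turned its balance, and knockdown 251 and 938. Rescaling moved the median log2 ratio of all genes with GSK126 from -0.04 to 0.15, and between the controls from -0.11 to 0.13. Of the up to 6 settings tried for a ratio, only rescaling, centring and the other control could turn its sign. Pseudocounts and filters cannot. Of 18 member ratios in the 3 matched comparisons, 15 kept their sign. The exceptions were CYB5A and HSD17B11 with GSK126, which turned with the other control, and HSD17B4 with astemizole, which lay between -0.01 and 0.13. No library could be left out, because each condition has 1 value. No paired analysis was possible because no group has a second column. Depth is unknown, and the UGT2B genes are limited both by low values and by close copies.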
